A study of Rattus norvegicus with 9 samples.

Results

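Untreated hypoplastic fetal rat lungs were set against the control lungs and the vesicle-treated hypoplastic lungs pooled, to find the genes whose level set the untreated hypoplastic lung apart from both other groups. The 3 untreated hypoplastic lungs were chosen by their labels, out of 9 lungs in all, and were compared with 6 others pooled. The whole fetal lungs came from Sprague-Dawley rats and fell into 3 groups of 3. Control lungs were labelled as untreated, hypoplastic lungs were untreated, and treated lungs were hypoplastic lungs given AFSC-EVs, which are extracellular vesicles released by amniotic fluid stem cells. Per the title of the series the hypoplasia followed oligohydramnios, a lack of amniotic fluid. The sources used here give no fetal age, litter, vesicle dose or time of treatment, and nothing in the labels says whether lungs of a group came from separate litters. P-values therefore measure the spread between these lungs only.

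Fetal lung grows as a branching tree of epithelium in a bed of mesenchyme, and fluid held inside the airways stretches it. A loss of amniotic fluid lets lung fluid escape and leaves the lung small and immature. Near the end of gestation the distal epithelium separates into flat alveolar type I cells, which exchange gas, and alveolar type II cells, which make surfactant. Osteopontin, the product of Spp1, is a secreted phosphoprotein of matrix and macrophages that binds integrins and CD44. Cholesterol synthesis supplies membranes, and the imprinted growth factor Igf2 drives fetal growth.

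RNA was sequenced after removal of ribosomal RNA, and the libraries held from 56922779 to 88243188 estimated counts. Levels are given in CPM, each library's count of a gene relative to its total, scaled by TMM, a factor that corrects for differences in library composition. Judged from Xist, Ddx3y and Eif2s3y, 2 of 3 control lungs, 1 of 3 hypoplastic lungs and 1 of 3 treated lungs were male. Every library carried the lung epithelial factor Nkx2-1 at 265 CPM or more, and a list of 8 liver genes summed to 5.94 CPM or less.

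Among genes with a mean of at least 1 CPM, the widest separation of the untreated hypoplastic lungs was in Spp1, 13.0-fold above the other lungs in the fit. Igf2, H19 and the cholesterol synthesis gene Hmgcs1 were also at higher levels in each hypoplastic lung than in any other lung. The surfactant gene Sftpc, the transporter gene Slc34a2 and the lung epithelial factor Nkx2-1 were at lower levels in each. None of these differences passed the pooled test. Of 12966 genes tested with edgeR's quasi-likelihood test, 0 reached an adjusted p under 0.05 (0.00%), and the smallest adjusted p by edgeR was 0.0799. At an unadjusted p under 0.05 edgeR counted 1381 genes, of which 807 were higher in hypoplastic lungs (6.22%) and 574 lower (4.43%). Over all genes tested, 246 (1.90%) had all hypoplastic libraries above the others and 353 (2.72%) below. limma voom called 0 genes, whereas DESeq2 called 55 higher (0.424%) and 11 lower (0.0848%). Of these 66 genes, 30 overlapped between the hypoplastic lungs and the others. In 20 of the 30, library hypoplastic 3 lay within the range of the 6 other libraries. Without hypoplastic 3, edgeR called 143 genes, all higher. Of these, 11 belonged to the lists of heart and skeletal muscle genes, and 75 had a mean under 1 CPM. The 11 were 3 of 4 genes listed as atrial, 6 of 8 as ventricular and 2 of 5 as skeletal muscle that were tested there. With all libraries kept, 11392 of the 12966 genes tested had a mean of at least 1 CPM.

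Levels were therefore also compared library by library. Among 11392 genes with a mean of at least 1 CPM, 192 had all 3 hypoplastic libraries above all 6 others (1.69%) and 338 had all 3 below (2.97%). In the higher genes the median log2 fold change was 0.44 against control and 0.35 against treated lungs. In the lower genes it was -0.33 and -0.27, respectively. Both sides use the same hypoplastic libraries. The genes were picked for lying on 1 side of both groups, so the sign of these medians follows from the choice. The space between the groups was narrow for most of these genes. The gap, which is the log2 ratio of CPM between the nearest hypoplastic and other library, had a median of 0.06 for the higher and 0.05 for the lower genes. A gap of at least 0.5 was reached by 3 higher and 0 lower genes, and a gap of at least 1 by 1 gene, Spp1.

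**Figure D1:**
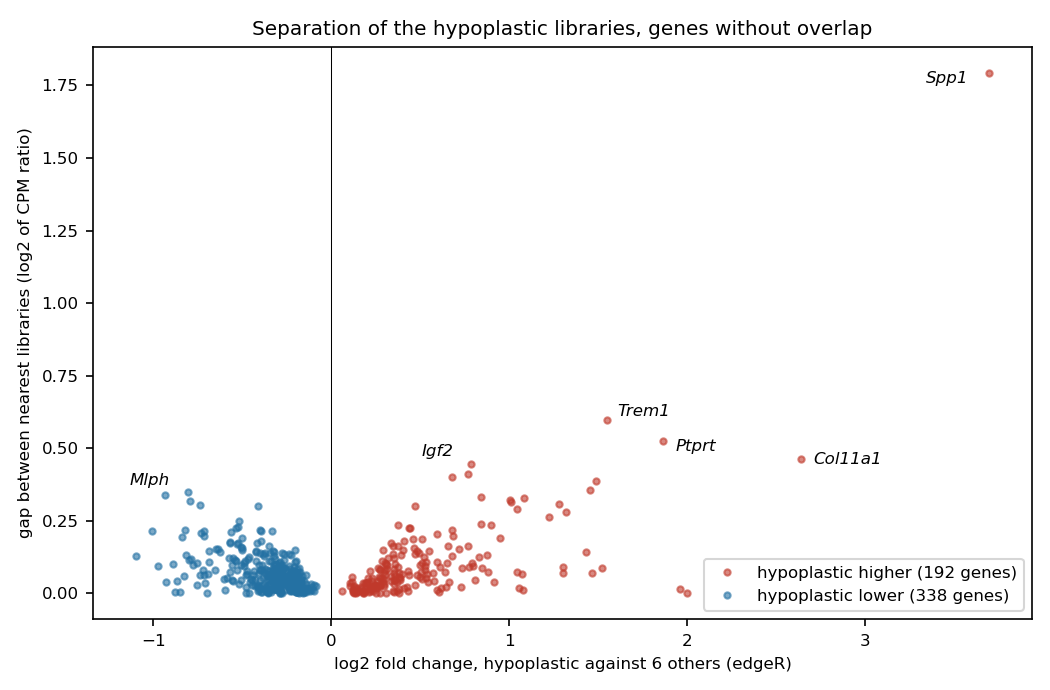
The 530 genes with a mean of at least 1 CPM and no overlap between the 3 hypoplastic and the 6 other libraries, with the edgeR log2 fold change on the x axis and the gap between nearest libraries (log2 of the CPM ratio) on the y axis; each point is 1 gene. Spp1 stands at a gap of 1.79 and the next gene, Trem1, at 0.60.

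Spp1 (Gene ID 25353) stood apart in every hypoplastic lung. Its level was 63.5, 164 and 89.8 CPM in hypoplastic 1, 2 and 3. It was 3.57, 2.75 and 3.54 CPM in the controls and 11.9, 18.3 and 8.53 CPM in the treated lungs. All 3 hypoplastic lungs lay above all 6 others, and the treated lungs lay between the other groups without touching either. The mean was 106 ± 52.4 CPM (SD, n = 3) in hypoplastic lungs and 8.11 ± 6.16 CPM (SD, n = 6) in the others, a 13.0-fold difference in the fit. The pooled log2 fold change was 3.70 (SE 0.55), with an edgeR adjusted p of 0.2245. That fit counts the difference between control and treated lungs as spread. With a separate term for each of the 3 groups, the same contrast for Spp1 was 4.02, and edgeR gave it an adjusted p of 0.00225. The DESeq2 adjusted p of Spp1 was 0.0004213, and over all alternatives the adjusted p ran from 0.0004213 to 0.4947. Leaving out hypoplastic 3 brought Spp1 to an edgeR adjusted p of 0.0195.

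Set against each group in turn, Spp1 rose by 5.01 on the log2 scale over control (edgeR adjusted p = 0.005818). It was the 1 gene called against control (0.00771% of genes tested). At an unadjusted p under 0.05 edgeR counted 865 genes higher (6.67%) and 738 lower (5.69%) against control. The Spp1 call was lost when control 1, 2 or 3 was left out. Against treated lungs 0 genes were called (0.00%), with 462 higher (3.56%) and 259 lower (2%) at an unadjusted p under 0.05, and DESeq2 called 17. Spp1 there had a log2 fold change of 3.03 with an edgeR adjusted p of 0.1856, and it was called there when hypoplastic 1 was left out. Between treated and control lungs its log2 fold change was 1.98, also without a call.

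The Spp1 promoter is shown because Spp1 had the widest separation among genes of at least 1 CPM. The 250 bases before the RefSeq start of Spp1 (assembly GRCr8, chr14:5619805-5620054, minus strand) read 5′ to 3′ as follows, with capitals marking the only match to the motifs searched, a TATAAA at 204 bases before the start.
Spp1: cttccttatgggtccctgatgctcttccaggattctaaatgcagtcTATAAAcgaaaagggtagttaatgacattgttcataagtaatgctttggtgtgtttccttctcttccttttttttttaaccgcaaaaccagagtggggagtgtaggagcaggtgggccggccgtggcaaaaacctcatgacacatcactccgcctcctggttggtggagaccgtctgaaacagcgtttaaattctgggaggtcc
Each motif was searched on both strands, in 33469 promoter windows of the same length. The letters TATAAA occur in 12.9% of the windows. The CCAAT box, of those letters, occurs in 34%. The AP-1 site, searched as TGANTCA, occurs in 6.34%. A sterol response element, searched as TCACNCCAC, occurs in 0.974%. A match describes letters in this window and no binding was measured.

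Genes of the osteopontin receptors overlapped between the groups, apart from Itgb6. Of 9 listed receptor subunits, 7 were tested. Their median pooled log2 fold change was 0.13, against 0.01 over all genes, and 0 of 7 were called. Itgb6, an epithelial integrin chain, was at 37.2, 44.7 and 40.9 CPM in hypoplastic lungs, at 66.4, 111 and 64.9 CPM in controls, and at 48.5, 48.2 and 47.3 CPM in treated lungs. The hypoplastic lungs lay below all 6 others, and Itgb6 had an edgeR adjusted p of 0.4315 at a log2 fold change of -0.65. Cd44, the other main class of receptor, overlapped between groups at 202 to 252 CPM in the 6 others and 219 to 253 CPM in hypoplastic lungs.

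A further 11 higher genes were named by smallest p among those without overlap, and none was called by edgeR. DESeq2 called all of them but Col11a1, for which it gave no adjusted p. Trem1, a receptor that amplifies signalling in myeloid cells, was at 2.75, 4.65 and 2.64 CPM in hypoplastic lungs. It was at 0.83, 0.55 and 1.04 CPM in controls and at 1.38, 1.23 and 1.75 CPM in treated lungs. The treated lungs again lay between the other groups, and the pooled log2 fold change of Trem1 was 1.55 (SE 0.31). Lgals1 encodes galectin-1, a sugar-binding protein of mesenchyme. It was at 55.3, 72.0 and 43.7 CPM in hypoplastic lungs, with the 6 others from 25.8 to 41.1 CPM. The pooled log2 fold change of Lgals1 was 0.85 (SE 0.17).

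Col11a1, a fibrillar collagen chain of cartilage, was at 89.1, 12.3 and 14.0 CPM in hypoplastic lungs and at 3.92 to 8.90 CPM in the others. Hypoplastic 1 stood far above the rest, so that the log2 fold change of Col11a1, 2.64 (SE 0.53), dropped to 1.08 without it. Serpinf1, which encodes the secreted anti-angiogenic factor PEDF, was at 8.33, 18.2 and 5.45 CPM against 2.77 to 5.13 CPM. Dkk2, a secreted modulator of Wnt signalling, was at 4.51, 12.2 and 2.82 CPM in hypoplastic lungs and at 1.02 to 2.82 CPM in the others. Its gap was 0.00078, so that its lowest hypoplastic library and its highest other library were all but equal. For both genes hypoplastic 2 was the highest library. Tfpi, an inhibitor of the tissue factor pathway of clotting, differed less but more evenly, at 49.6, 57.6 and 51.8 CPM against 33.8 to 42.4 CPM (log2 fold change 0.44, SE 0.09).

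The remaining 4, besides Igf2, were Prph, an intermediate filament protein of peripheral neurons, Cntnap1, an axon-glia contact protein, Kif5c, a neuronal kinesin, and Ptprt, a receptor tyrosine phosphatase. Prph was at 5.61, 4.93 and 2.19 CPM in hypoplastic lungs and at 0.89 to 2.09 CPM in the others. Cntnap1 was at 3.80, 4.52 and 4.16 CPM against 1.57 to 3.05 CPM. Kif5c was at 2.501, 1.57 and 2.24 CPM against 0.68 to 1.248 CPM. These 3 genes had low levels, and their log2 fold changes ran from 1.01 for Cntnap1 to 1.47 for Prph. Ptprt, at 2.43, 3.27 and 1.52 CPM against 0.28 to 1.06 CPM, had a log2 fold change of 1.86 (SE 0.37) and the third widest gap, 0.52. The edgeR adjusted p of each of these 11 genes was 0.2668. Leaving out hypoplastic 3 brought Prph to 0.008825 and Col11a1 to 0.02165 by edgeR, both past the threshold. Lgals1, Ptprt, Serpinf1 and Dkk2 were also called by edgeR without hypoplastic 3.

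**Figure D2:**
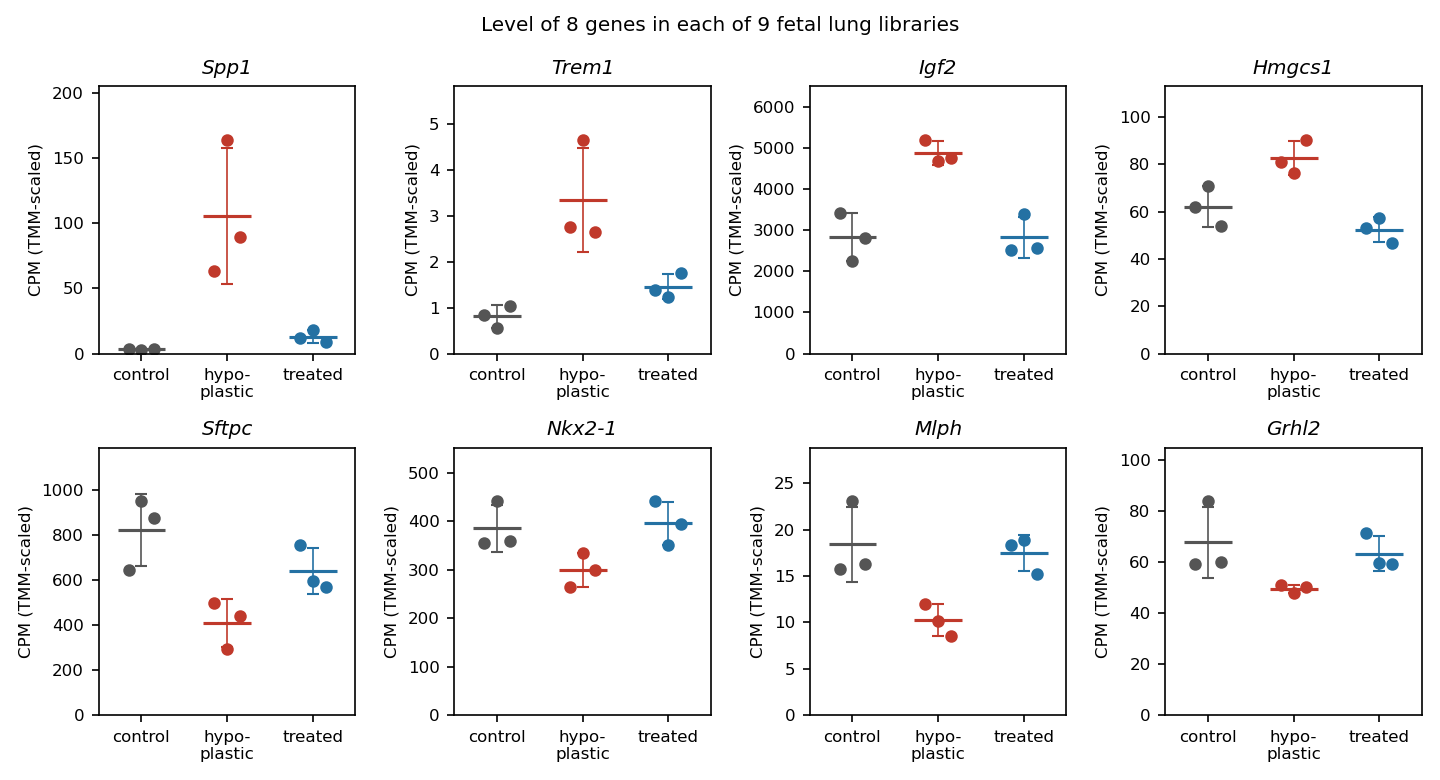
Level in CPM (TMM-scaled) of 8 genes in each of the 9 libraries, with points for libraries, horizontal bars for group means and error bars for 1 SD (n = 3). In the upper row the hypoplastic points lie above all others (Spp1 63.5 CPM or more against 18.3 or less), and in the lower row below them (Mlph 11.99 CPM or less against 15.3 or more).

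Igf2 was even across the hypoplastic lungs, at 5203, 4670 and 4760 CPM. It was at 3427, 2260 and 2809 CPM in controls and at 2516, 3400 and 2567 CPM in treated lungs. Control and treated lungs overlapped fully, with means of 2832 ± 583.6 and 2828 ± 495.9 CPM (SD, n = 3 each), and the hypoplastic mean was 4878 ± 285.5 CPM. The pooled log2 fold change of Igf2 was 0.79 (SE 0.16), with an edgeR adjusted p of 0.2668 and a DESeq2 adjusted p of 0.0004213. Over all alternatives this fold change ran from 0.73 to 0.84.

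H19, the maternally expressed noncoding RNA next to Igf2, was at 6891, 6579 and 6420 CPM in hypoplastic lungs and at 2712 to 5523 CPM in the others. Its hypoplastic libraries also lay above all 6 others (log2 fold change 0.68, SE 0.20, edgeR adjusted p = 0.3617). Of 11 imprinted growth genes tested, 8 were above 0, and these 2 lay above all the others, where 1.90% of all genes did. At an unadjusted edgeR p under 0.05, 3 were higher (6.22% of all genes) and 1 was lower (4.43%). The third higher gene was Peg3, an imprinted zinc finger gene, with a log2 fold change of 0.29 and overlap. Igf2r, the receptor that clears IGF2, had a log2 fold change of 0.33, and Dlk1, an imprinted Notch-like ligand, one of -0.39, both with overlap, and Dlk1 was the lower gene. The list median was 0.25. This list was chosen after its values were seen, with Igf2 already named for its lack of overlap. Its counts are therefore a description and no test.

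Among the gene lists, the cholesterol pathway held the largest number of listed genes above all others. Of 23 genes tested, 5 had all hypoplastic libraries above the 6 others, 1 had them below, and 7 had an unadjusted edgeR p under 0.05, all higher. Over all genes tested these shares were 1.90% above, 2.72% below and 6.22% higher at that p. None was called by edgeR, DESeq2 called 1, Hmgcs1, and the list median was 0.11 against 0.01 over all genes. Hmgcs1 encodes the synthase that commits acetyl units to the mevalonate pathway. It was at 81.2, 76.3 and 90.5 CPM in hypoplastic lungs, 61.8, 70.9 and 53.7 CPM in controls, and 52.9, 57.5 and 46.7 CPM in treated lungs. Its pooled log2 fold change was 0.53 (SE 0.12), with an edgeR adjusted p of 0.2789 and a DESeq2 adjusted p of 0.03305.

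Insig1, a sterol-sensing brake on this pathway, was at 235, 229.9 and 244 CPM in hypoplastic lungs and at 155 to 205 CPM in the others. The demethylase Cyp51 was at 210, 173 and 172 CPM against 102 to 166 CPM. In Cyp51 the nearest other library was treated 2, and in Insig1 it was control 3. Msmo1, a sterol methyl oxidase, was at 68.6, 68.4 and 60.9 CPM against 36.4 to 57.9 CPM. The log2 fold changes of Insig1, Cyp51 and Msmo1 ran from 0.37 to 0.53. Srebf2, the transcription factor that switches on the pathway, was the 1 listed gene below all others, at 320, 367 and 366 CPM against 368 to 458 CPM. Its nearest libraries were separated by about 1 CPM, and its log2 fold change was -0.20 (SE 0.096, edgeR adjusted p = 0.491). Most listed genes overlapped, among them Mvk (log2 fold change -0.19), Idi1 (0.31), Nsdhl (0.02) and Sc5d (0.04).

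Promoter windows of 4 of these genes, Hmgcs1, Insig1, Msmo1 and Cyp51, were read because the genes lay above all others. The Cyp51 window held no motif match and is not printed, and the other 3 windows are shown. They come from RefSeq (assembly GRCr8), cover the 250 bases before each start, and read 5′ to 3′. Hmgcs1 lies at chr2:53382054-53382303 on the plus strand, Insig1 at chr4:8057770-8058019 on the minus strand and Msmo1 at chr16:29746863-29747112 on the plus strand. Capitals mark matches to the CCAAT box, which reads ATTGG where it lies on the other strand. They also mark the TATAAA of Hmgcs1 and the AP-1 site of Msmo1.
Hmgcs1: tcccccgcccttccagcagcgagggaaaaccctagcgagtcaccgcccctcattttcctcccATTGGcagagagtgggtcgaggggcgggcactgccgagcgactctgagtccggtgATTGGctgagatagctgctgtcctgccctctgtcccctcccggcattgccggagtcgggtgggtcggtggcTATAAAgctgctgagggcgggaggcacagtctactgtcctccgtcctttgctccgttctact
Insig1: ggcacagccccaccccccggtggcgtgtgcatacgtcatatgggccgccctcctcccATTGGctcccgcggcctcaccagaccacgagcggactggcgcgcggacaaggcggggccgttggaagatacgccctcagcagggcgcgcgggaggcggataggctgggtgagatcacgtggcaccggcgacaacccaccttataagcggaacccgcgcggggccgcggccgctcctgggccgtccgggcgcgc
Msmo1: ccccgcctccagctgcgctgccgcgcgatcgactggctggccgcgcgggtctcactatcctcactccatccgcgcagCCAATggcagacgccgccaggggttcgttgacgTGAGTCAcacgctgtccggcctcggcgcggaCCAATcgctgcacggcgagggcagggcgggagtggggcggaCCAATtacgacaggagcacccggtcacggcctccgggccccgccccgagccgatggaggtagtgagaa
The CCAAT box, found in 34% of all windows, occurred in 3 of the 4 windows read. It lay at 188 and 133 bases before the start in Hmgcs1, 193 in Insig1 and 173, 109 and 68 in Msmo1. Hmgcs1 also held the TATA motif at 62 bases and Msmo1 the AP-1 site at 140. The Cyp51 window matched none of the 4 motifs, and none of these 4 windows held TCACNCCAC in these exact letters.

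Alveolar type II genes lay on the low side. All 10 listed genes had a pooled log2 fold change below 0, with a median of -0.54 against 0.01 over all genes, and 7 of 10 had an unadjusted edgeR p under 0.05, where 4.43% of all genes did. None was called by edgeR. The list median was -0.70 against control and -0.47 against treated lungs, and -0.27 between treated and control lungs. It ran from -0.62 to -0.40 when any 1 library was left out, with the value nearest 0 without control 2. In whole lung, fewer type II cells and less RNA of these genes per cell cannot be told apart.

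Sftpc, surfactant protein C, was the clearest of them. It was at 496, 292 and 438 CPM in hypoplastic lungs, at 645, 951 and 873 CPM in controls, and at 757.5, 595 and 567 CPM in treated lungs. The hypoplastic lungs lay below all 6 others, and treated and control lungs overlapped. The log2 fold change of Sftpc was -0.84 (SE 0.21) with an edgeR adjusted p of 0.3073 and a DESeq2 adjusted p of 0.01803. Against control alone it was -1.01 and against treated lungs -0.65.

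Slc34a2, the phosphate transporter of type II cells, was at 460, 457 and 473 CPM in hypoplastic lungs and at 548 to 1155 CPM in the others. Cebpa, a transcription factor of type II cells, was at 52.2, 64.5 and 67.0 CPM against 71.7 to 127 CPM. Both were without overlap, with log2 fold changes of -0.72 and -0.51. Lamp3 and Sftpd were lower too but overlapped, at -0.62 and -0.93. Sftpb, surfactant protein B, was at 817, 763 and 816 CPM in hypoplastic lungs, close to the treated lungs at 923, 958 and 765 CPM and below the controls at 908, 2007 and 1362 CPM. Its log2 fold change of -0.84 against control was followed by only -0.14 against treated lungs, both without a call. Control 2 had the highest level of Sftpc, Slc34a2, Sftpb, Sftpd and Lamp3.

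Alveolar type I and general epithelial genes had low pooled medians too, to a smaller extent. Their list medians overlapped between the hypoplastic lungs and the others. Relative to the mean of the 6 others, the type I median was -0.03 in hypoplastic 2 and -0.52 in treated 2. The general epithelial median was -0.02 in hypoplastic 1 and -0.15 in treated 3. Of 10 type I genes tested, 9 had a log2 fold change below 0 (median -0.34) and 2 had an unadjusted edgeR p under 0.05 on the low side, where 4.43% of all genes did. Cldn18, a tight junction protein, was at 390, 369 and 379 CPM in hypoplastic lungs and at 401 to 588 CPM in the others, without overlap. Emp2, a membrane protein of type I cells, was at 252, 316 and 267 CPM against 293 to 851 CPM. Of 19 general epithelial genes, 16 were below 0 (median -0.20). Grhl2 and Esrp2, a transcription factor and a splicing factor of epithelium, lay below all 6 others, where 2.72% of all genes did. Their log2 fold changes were -0.40 and -0.52. These genes and the general epithelial list were chosen after their values were seen. Epcam, a surface protein of all epithelium, overlapped at 514, 399 and 457 CPM against 451 to 528 CPM.

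Nkx2-1, the transcription factor that specifies lung epithelium, was at 265, 334 and 300.1 CPM in hypoplastic lungs. It was at 356, 442 and 359 CPM in controls and at 441, 352 and 394 CPM in treated lungs. The groups did not overlap, and control and treated lungs were alike in range. Its log2 fold change was -0.38 (SE 0.11, edgeR adjusted p = 0.3617). Of the 14 genes of branching, 9 were below 0 with a median of -0.04. Shh, the hedgehog ligand of the epithelium, was at 11.7, 12.7 and 13.6 CPM against 12.4 to 20.6 CPM, where only treated 2 fell into the hypoplastic range (log2 fold change -0.43, edgeR adjusted p = 0.4195).

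The lower genes named by smallest p were of mixed function, and none was called by edgeR. DESeq2 called all of them but Tns2 and Nr2f6. Mlph, melanophilin, which ties secretory vesicles to myosin, had the widest gap of the lower genes, 0.35. It was at 11.99, 10.2 and 8.56 CPM in hypoplastic lungs, 15.8, 23.1 and 16.3 CPM in controls, and 18.3, 18.9 and 15.3 CPM in treated lungs. Its log2 fold change was -0.81 (SE 0.16, edgeR adjusted p = 0.2668, DESeq2 adjusted p = 0.002906). Cebpb, a transcription factor of inflammation and lung epithelium, was at 145, 136 and 103 CPM against 156 to 222 CPM. Itga3, a laminin-binding integrin chain, was at 121, 151 and 146 CPM against 167 to 222 CPM. Both had log2 fold changes near -0.5, at -0.54 for Cebpb and -0.50 for Itga3.

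Of the rest, Sema4g, a semaphorin, was at 5.93, 6.37 and 7.22 CPM in hypoplastic lungs and at 7.74 to 15.8 CPM in the others. Rhbdl3, a rhomboid-like membrane protein, was at 18.1, 17.7 and 14.2 CPM against 19.8 to 36.0 CPM. In Sema4g and Rhbdl3 the nearest library was treated 3. Plekhd1, the histone gene Hist1h2bo, Tns2, a tensin of cell adhesions, the nuclear receptor Nr2f6 and the membrane protein Ttyh3 completed the list, with log2 fold changes from -0.83 for Hist1h2bo to -0.32 for Ttyh3. Reads of Hist1h2bo could be shared with near-identical histone genes, so its value is uncertain.

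**Figure D3:**
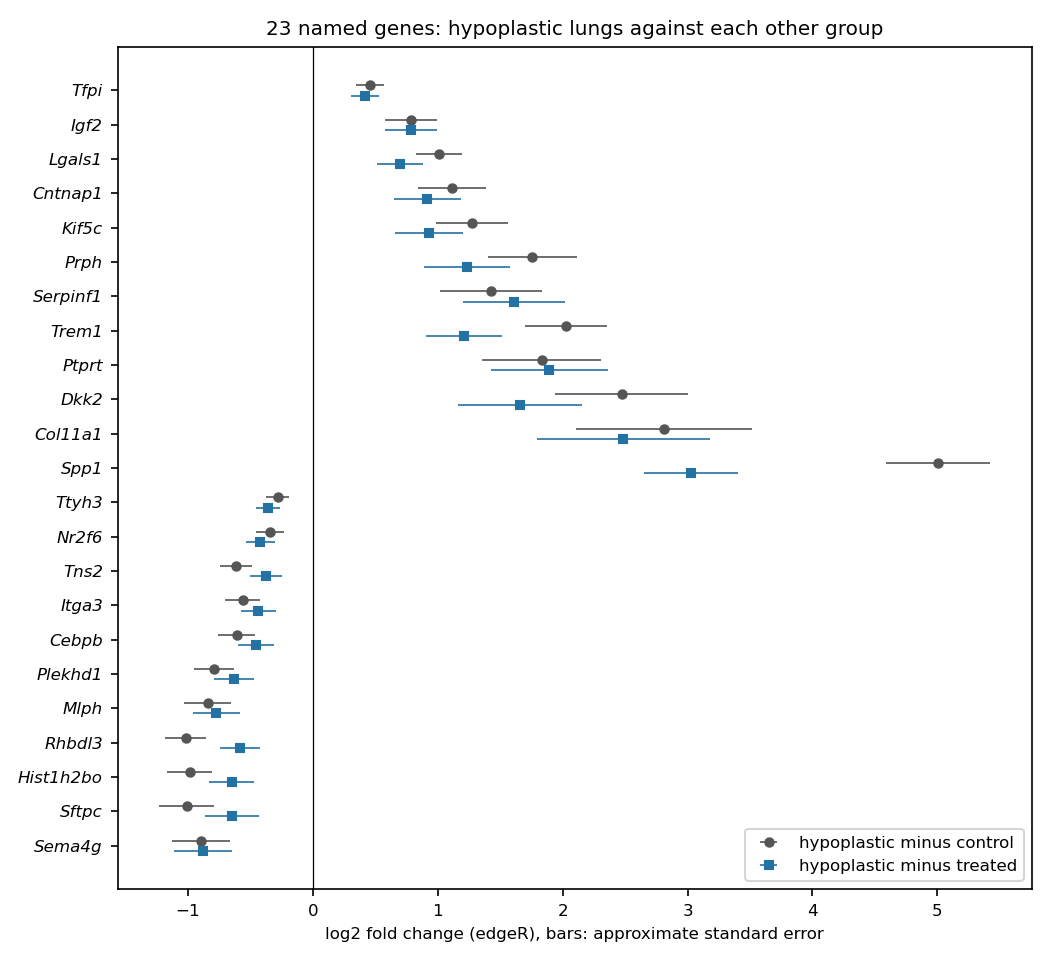
Log2 fold change by edgeR (x axis) of 23 genes named by smallest p, hypoplastic minus control (grey circles) and hypoplastic minus treated (blue squares), with bars for the approximate SE. Both sides share the hypoplastic libraries, and the genes were picked for lack of overlap, so their signs follow from the choice. Spp1 lies at 5.01 against control and 3.03 against treated lungs, and Igf2 at 0.78 and 0.79.

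These genes differed in how the treated lungs stood to the controls. Treated and control lungs had nearly equal means of Igf2 (log2 difference 0.00, treated minus control), Sema4g (-0.01), Ptprt (-0.06) and Mlph (-0.07). In Spp1 (1.98), Trem1 (0.82), Dkk2 (0.82) and Prph (0.52) the treated lungs had the higher mean. In Rhbdl3 (-0.44), Sftpc (-0.36) and Hist1h2bo (-0.34) they had the lower one. No gene was called between treated and control lungs by edgeR (0.00%), with 217 higher (1.67%) and 324 lower (2.50%) at an unadjusted p under 0.05. DESeq2 called 14 genes there, and edgeR called 1 without control 2.

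Tf, transferrin, the iron carrier of plasma, was a further gene with the treated lungs in between. It was at 99.5, 72.4 and 82.6 CPM in hypoplastic lungs, 27.0, 20.6 and 23.7 CPM in controls, and 60.4, 29.5 and 57.2 CPM in treated lungs. All 3 groups were apart from each other. The log2 fold change of Tf was 1.22 pooled, 1.84 against control and 0.79 against treated lungs, with no edgeR call and a pooled DESeq2 adjusted p of 0.04112. Against control, edgeR called Tf with the replicate block and without treated 2. Of 10 iron handling genes, only Tf was without overlap, where 1.90% of all genes lay above all 6 others. Of 12 immediate early and heat shock genes all 12 were above 0 (median 0.49) and 5 had an unadjusted edgeR p under 0.05, where 6.22% of all genes were higher. Relative to the mean of the 6 others, this list's median was 0.62, 0.76 and 0.51 in hypoplastic 1, 2 and 3. It was 0.60 in treated 2, within the hypoplastic range. Ier3, an early response gene, was at 113, 153 and 99.1 CPM against 29.4 to 88.6 CPM. Junb, a subunit of AP-1, was at 223, 296 and 186 CPM against 102 to 226 CPM, where treated 2 fell in the hypoplastic range.

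The summed level of the neutrophil genes was above that of the other lungs in all 3 hypoplastic lungs. The list median by library overlapped with the 6 others, and no single member was free of overlap with them. Of 14 tested, 13 were above 0 (median 1.44), 6 had an unadjusted edgeR p under 0.05, against 6.22% of all genes, and 0 were called. The summed level of the 15 listed genes was 121 to 216 CPM in hypoplastic, 26.0 to 33.0 CPM in control and 50.2 to 119.6 CPM in treated lungs. In hypoplastic 2, which had the sum of 216 CPM, Lcn2 alone was at 131 CPM. Lcn2 was at 33.1 and 21.3 CPM in hypoplastic 1 and 3. Relative to the mean of the 6 others, the list median was 1.02, 1.25 and 1.07 in hypoplastic 1, 2 and 3, and 1.09 in treated 3. S100a8, a calprotectin subunit, was at 39.0, 19.8 and 31.1 CPM in hypoplastic lungs and at 4.49, 4.57 and 2.71 CPM in controls. In treated lungs S100a8 was at 20.1, 7.82 and 30.1 CPM, so that treated 1 and 3 lay in the hypoplastic range and treated 2 near the controls. Without treated 2, edgeR called S100a8 and S100a9 against control, in the fit that shares its spread over all groups. Ngp, a granule protein gene, overlapped with the controls, at 2.01 CPM in hypoplastic 2 against 3.64 CPM in control 2. Cd177, a neutrophil surface protein, was at 5.73, 2.74 and 3.95 CPM against 1.20 to 3.03 CPM. The granule enzyme gene Elane was at 1.65 CPM or less in every library. The list median ran from 1.16 to 1.91 when any 1 library was left out, with the highest value without treated 3.

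In other immune genes the pooled difference was carried by hypoplastic 2, though treated 3 was high in some of them. All 15 cytokine and chemokine genes were above 0 with a median of 1.72, and 11 had an unadjusted edgeR p under 0.05, where 6.22% of all genes were higher. Without hypoplastic 2 the median was -0.07. All 12 interferon response genes were above 0 with a median of 2.25, which became -0.12 without hypoplastic 2. Cxcl10, an interferon-induced chemokine, was at 98.9 CPM in hypoplastic 2, 3.11 in hypoplastic 1 and 2.498 in hypoplastic 3, against 0.61 to 4.66 CPM in the others. Ifit3, an interferon-induced antiviral gene, was at 85.5 CPM there and at 0.46 and 2.77 CPM in hypoplastic 1 and 3, below the 7.36 CPM of treated 3. Macrophage genes had a median of 0.59, and -0.01 without hypoplastic 2. Relative to the mean of the 6 others, the macrophage median was 1.39 in hypoplastic 2 and 1.30 in treated 3. The interferon median was 3.88 in hypoplastic 2, 1.83 in treated 3 and 0.72 in hypoplastic 3. Tnf was the 1 cytokine gene without overlap, at 1.65, 2.99 and 2.10 CPM against 0.70 to 1.63 CPM. Over all genes tested, 1.90% lay above all 6 others.

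Type I collagen genes were also highest in hypoplastic 2. Col1a1, the main chain of type I collagen, was at 1416, 5816 and 1396 CPM in hypoplastic lungs and at 599 to 1862 CPM in the others. The median of 12 matrix genes was 0.33, and 0.08 without hypoplastic 2. Lum, lumican, a collagen-binding proteoglycan of stroma, was at 6.28, 75.1 and 0.11 CPM against 0.30 to 1.48 CPM. The 3 mesothelial genes had a median of 0.65, and -0.24 without hypoplastic 2. Msln, a marker of mesothelium, was at 24.7, 58.6 and 18.7 CPM against 11.1 to 25.4 CPM.

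Heart muscle genes were high in hypoplastic 1 and 2 and not in hypoplastic 3. The 5 atrial genes summed to 123 CPM at most and 0.14 CPM at least in hypoplastic lungs, to 0.19 to 7.19 CPM in controls and to 0.91 to 1.90 CPM in treated lungs. Myh6, atrial myosin, was at 70.9, 28.2 and 0.02 CPM in hypoplastic 1, 2 and 3, and at 3.13 CPM or less in the others. A list named ventricular held 8 genes, among them general heart muscle genes such as Tnni3, Tnnt2, Actc1 and Mybpc3. These 8 summed to 4.40 to 145.5 CPM in hypoplastic lungs, 4.48 to 12.9 CPM in controls and 4.14 to 9.47 CPM in treated lungs. Actc1, cardiac actin, was at 111, 47.0 and 1.05 CPM against 1.67 to 8.44 CPM. The median was 4.24 for 4 atrial genes tested, 2.17 for 5 of the list named ventricular and 0.85 for 4 skeletal muscle genes. Of these, edgeR called 0. The skeletal muscle median ran from 0.24 to 0.89 over the alternatives. DESeq2 called 2 genes of the list named ventricular. They were Mybpc3, cardiac myosin-binding protein (DESeq2 adjusted p = 0.04825), and Tnni3, cardiac troponin I (DESeq2 adjusted p = 0.004455). With the replicate block, edgeR called Mybpc3. Pulmonary veins of rodents carry a sleeve of heart muscle. Whether the amount of such tissue taken differed between lungs was not tested.

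Some basal keratin genes and the secretoglobin gene Scgb3a1 were high in hypoplastic 1. The 4 basal genes had a median of 3.24, and -0.12 without hypoplastic 1, and the 4 club cell genes one of -0.0033, and -0.53 without hypoplastic 1. Krt14, a keratin of basal cells, was at 14.9 CPM in hypoplastic 1, 0.93 in hypoplastic 2 and 0.14 in hypoplastic 3, against 0.03 to 0.36 CPM in the others. Krt5 was at 14.9, 0.20 and 0 CPM against 0.04 to 0.48 CPM. Scgb3a1, a secretoglobin of proximal airway, was at 30.8, 0.15 and 0.09 CPM against 0.03 to 0.61 CPM. Other members did not follow, since Krt4, a keratin of squamous epithelium, was lowest of all libraries in hypoplastic 1 (17.9 CPM). The club cell genes summed to 278 CPM in hypoplastic 1, below the 396 CPM of control 2. Without hypoplastic 1 the log2 fold changes of Krt5 and Scgb3a1 turned from 4.62 and 5.57 to -0.99 and -0.85. The 10 smooth muscle genes had a median of 0.36 and were highest in hypoplastic 1, where Cnn1, calponin, was at 37.8 CPM against 17.1 CPM or less in every other library.

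**Figure D4:**
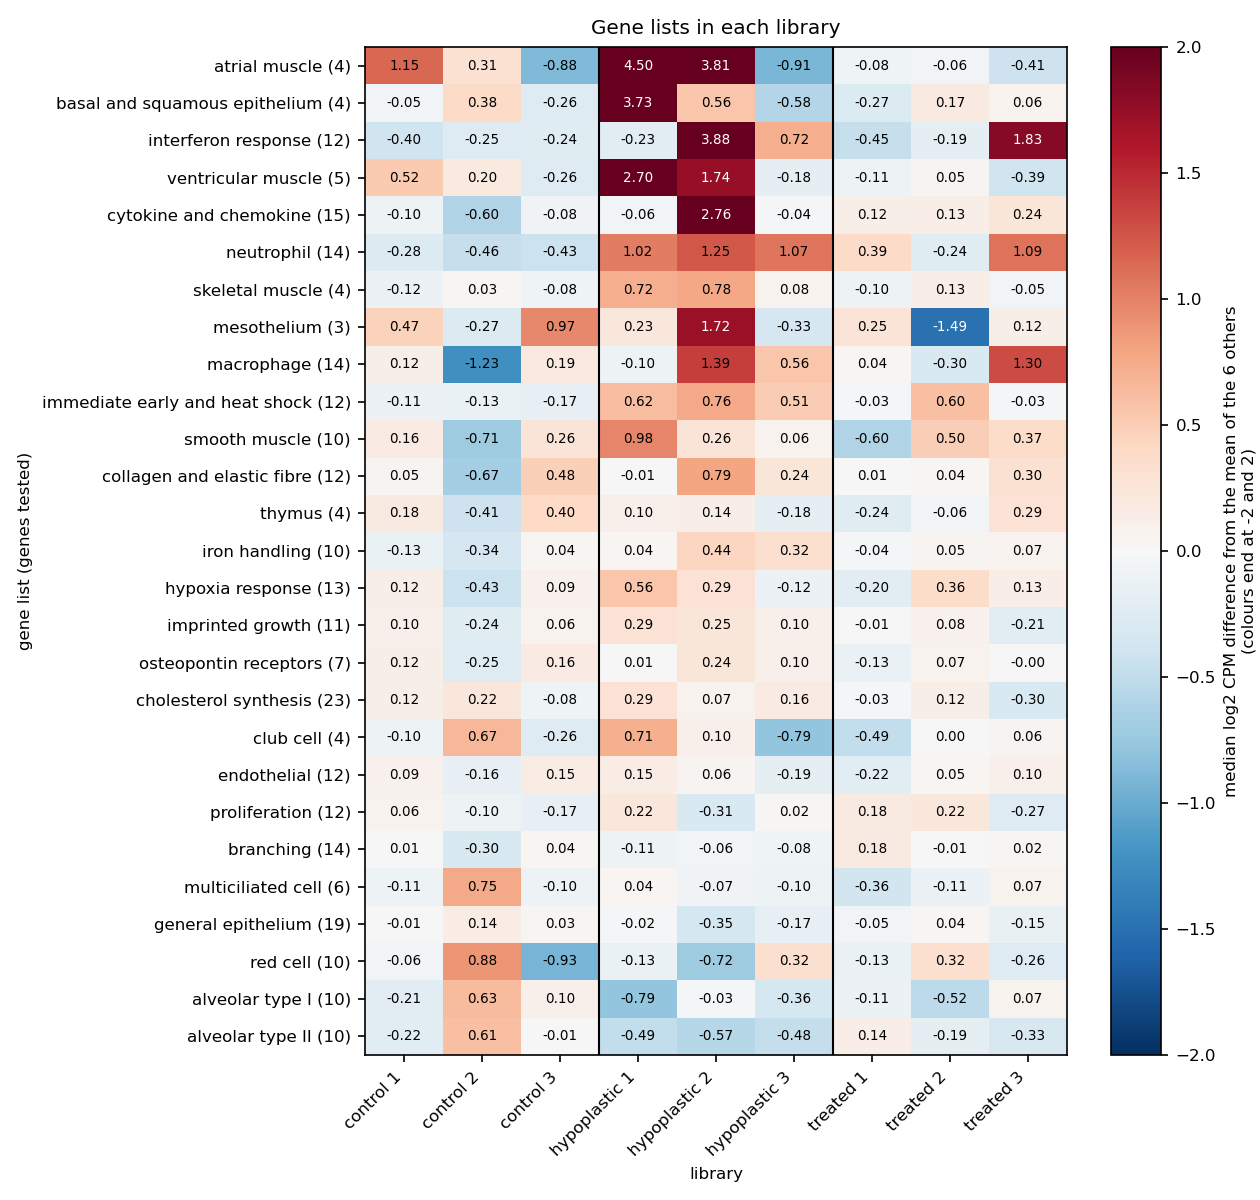
Median log2 CPM difference from the mean of the 6 other libraries, for the tested genes of each list (rows, number of genes in brackets) in each of the 9 libraries (columns); colours end at -2 and 2. Alveolar type II genes lie between -0.57 and -0.48 in all 3 hypoplastic libraries, and atrial genes at 4.50 and 3.81 in hypoplastic 1 and 2. Interferon genes lie at 3.88 in hypoplastic 2, at 1.83 in treated 3 and at 0.72 or less in hypoplastic 1 and 3.

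Endothelial genes had a median near 0 (-0.01, 0 of 12 at an unadjusted edgeR p under 0.05), as did proliferation genes (-0.03, 0 of 12). Mki67, a marker of dividing cells, was at 255, 249.9 and 224 CPM in hypoplastic lungs and at 223 to 387 CPM in the others. Pecam1, an endothelial adhesion molecule, was at 291, 340 and 245 CPM against 212 to 352 CPM. Red cell genes had a median of -0.26, with 9 of 10 below 0 (0 of 10 at that p), and multiciliated cell genes one of -0.19 (0 of 6). Thymus genes had a median of 0.28 (0 of 4). Hypoxia response genes had a median of 0.28, with 12 of 13 above 0. At an unadjusted edgeR p under 0.05, 2 were higher, Car9 and Pgk1, where 6.22% of all genes were.

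The hypoplastic lungs were uneven in single genes. The within-group SD of log2 CPM had a median of 0.18 in hypoplastic, 0.17 in control and 0.18 in treated lungs, but it exceeded 1 for 238 genes in hypoplastic lungs, 107 in controls and 80 in treated lungs. Hypoplastic 2 was at least 2-fold above all 8 other libraries for 155 genes, hypoplastic 1 for 32 and hypoplastic 3 for 1, whereas control 2 was so for 19 and treated 1 for 3. Hypoplastic 1 and 2 were together at least 2-fold above the 7 others for 29 genes. All 3 hypoplastic lungs were at least 2-fold above all 6 others for 1 gene, Spp1. These counts compare log2 of CPM plus a pseudocount of 0.5, which keeps genes near 0 out of them.

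The smallest p of the pooled test belonged to Atp6ap1l, a gene of very low level. It was at 0.47, 0.36 and 0.16 CPM in hypoplastic lungs, at 0.05, 0 and 0 CPM in controls and at 0.04, 0.04 and 0.01 CPM in treated lungs. All 3 hypoplastic lungs lay above all 6 others (log2 fold change 3.74, SE 0.61, edgeR adjusted p = 0.07994). With no filter on low counts, edgeR called 2 genes, Atp6ap1l and the muscle gene Trdn.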

How the data were processed

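The authors deposited 1 table of estimated counts for 17465 genes and 9 libraries, without normalization. The submitters' processing notes name rn7 and DESeq2, without a role. The sources used here give no aligner or counter, and 19.5% of nonzero values were whole. Per the labels' protocols, RNA was depleted of ribosomal RNA and extracted on 1 day. Ribosomal and 7SL rows held 14.1% to 19.9% of counts. Gene IDs were matched to RefSeq GRCr8 for names (17314, 99.1%).

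Counts were rounded and tested with edgeR 4.0.16 in R 4.3.3 (quasi-likelihood, TMM, filterByExpr, 12966 genes tested), with 2 group terms and 7 residual degrees of freedom for the pooled comparison and 3 terms and 6 for each side. Benjamini-Hochberg adjusted p-values under 0.05 were called. SEs are the log2 fold change over the square root of F and are approximate. The pooled step was tested on simulated data. Libraries of 1 group differed by at least 137 chi-square per degree of freedom. DESeq2 1.42.0, limma 3.58.1 voom, RLE factors, no filter, a filter of 1 CPM in 3 libraries, legacy and robust fits, a sex term, removal of ribosomal rows and omission of each library were alternatives.

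Named genes were up to 12 in each direction with a symbol, a mean of at least 1 CPM and no overlap, by smallest p where none was called, then up to 4 members per list by smallest p, and Spp1, Sftpc, Sftpb, Nkx2-1 and Hmgcs1. The rule, 26 gene lists and the comparison were chosen with earlier results of these data known. The general epithelium and imprinted growth lists, and the other genes named, were chosen after their values were seen. Some genes that met the rule are not reported here.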

Additional observations from a re-analysis of the deposited data

How the results depend on the processing

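The pooled comparison called 1 gene (Spp1) with 3 group terms, 66 with DESeq2, 2 without a filter, 4 with the replicate block (Atp6ap1l, Mybpc3, Pln and Trim29) and 1 at an adjusted p under 0.1, against 0 as reported. Leaving out single libraries gave 0 to 143, with 143 without hypoplastic 3 and 1 without hypoplastic 1. Hypoplastic against control called 202 genes with DESeq2, 2 with the replicate block (Spp1 and Tf) and 0 to 45 with single libraries left out, against 1. The 0 came without control 1 or control 3, the call without control 2 was Ifit1, and 5 came without treated 2 (Olfm4, S100a8, S100a9, Spp1 and Tf). Hypoplastic against treated called 17 genes with DESeq2, 0 with the replicate block and 0 to 44 with single libraries left out (2 without hypoplastic 1, 44 without hypoplastic 3), against 0. The cause was not tested. Replicate numbers were not treated as pairs: same-numbered libraries correlated in their deviations at -0.40 to 0.33, over 0.1 in 3 of 9 pairs, and 0 libraries correlated best with their own number.

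Genes without overlap numbered 192 higher and 338 lower. With single libraries left out they numbered 217 to 561 and 371 to 745, as fewer libraries overlap less. A minimum of 5 CPM, chosen after seeing the data, gave 144 and 310. Fold changes were followed through the alternatives for named genes only, not for all genes tested. Among those followed, the log2 fold changes of 5 genes reversed when 1 library was left out. With single libraries left out, Cxcl2 ran from -0.034 to 2.66, Ifit3 from -0.16 to 5.52 and Ifit2 from -0.076 to 2.80, each lowest without hypoplastic 2. Krt5 ran from -0.99 to 5.19 and Scgb3a1 from -0.85 to 6.14, each lowest without hypoplastic 1. With 3 libraries in a group, the spread between lungs limited precision more than depth did, except in genes near 0.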
